A study of Mus musculus with 2 samples.

Results

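Nrg1 and Mmp13 fibroblasts of the inflamed mouse colon are described here: 102 cell barcodes, 29 in library 1 and 73 in library 2, of 14848 barcodes that passed the filters (5721 and 9127). They were chosen by raw UMI counts (unique molecular identifiers, each marking 1 captured RNA molecule). A barcode needed at least 200 genes and under 20% mitochondrial UMIs, at least 3 UMIs summed over Col1a1, Col1a2, Col3a1, Col6a1 and Col6a2, and at least 3 summed over Nrg1 and Mmp13. It could hold at most 1 UMI of the leukocyte gene Ptprc, 3 of the epithelial gene Epcam and 2 of the smooth muscle gene Myh11, and none of the endothelial gene Cdh5. Pdgfra, the receptor that marks subepithelial fibroblasts of the gut, was not part of the choice and was detected in 78 of the 102 cells, 24 in library 1 and 54 in library 2.

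The study profiled single cells from the middle colon of SPF mice aged 7 weeks after 6 days on 3% dextran sulfate sodium (DSS), which damages the epithelium of the colon and causes colitis. Both libraries belong to this 1 group, no allele, strain, sex or agent other than DSS is given, and since untreated colon was not analysed here, no effect of DSS can be read from these values. The labels number the libraries as repeats without saying that they came from separate animals, so p-values rest on the spread between these samples alone, and that spread may be technical.

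Fibroblasts are the cells that build and remodel connective tissue. In the colon, those lying directly under the epithelium carry Pdgfra and send growth factors, Wnt and BMP signals to the crypt, while those around vessels and in the submucosa, often called adventitial, carry genes such as Pi16 and Cd34. Neuregulin 1, the product of Nrg1, is an EGF family ligand of the receptors ERBB3 and ERBB4 and acts on intestinal stem and progenitor cells. Mmp13 encodes collagenase 3, a secreted enzyme that cleaves fibrillar collagen.

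The libraries held 76622643 and 94204110 UMIs, and the 29 and 73 cells had medians of 8400 and 10967 UMIs and 3075 and 3506 genes. They made up 0.507% and 0.80% of kept barcodes. Libraries shared 18 barcode sequences, none of them among these cells. Scrublet, which scores likely doublets, marked 0 and 5 of the cells, which were kept in the main analysis. Transcripts of S100a8, a neutrophil gene, were detected in 86.2% and 94.5% of these fibroblasts and in 93.5% and 98.2% of epithelial barcodes, whose median depth was 17187 and 20749 UMIs. The epithelial gene Krt8 was detected in 62.1% and 78.1% of them and in 73.7% and 73.99% of leukocyte barcodes (medians 6443 and 6132 UMIs). These shares are at or near those of cell types that lack the genes and are read as background.

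The genes that chose the cells are given first, as a description. Nrg1 (ENSMUSG00000062991, chromosome 8, 31814551 to 32884029, GRCm38) ranged from 2 to 121 UMIs per cell in library 1 with a median of 29, and from 0 to 114 in library 2 with a median of 36. Mmp13 (ENSMUSG00000050578, chromosome 9, 7272514 to 7283331) ran from 0 to 637 in library 1 (median 11) and from 0 to 895 in library 2 (median 23). Nearly every cell thus held Nrg1, in 29 of 29 and 71 of 73, whereas Mmp13 was detected in 23 and 56. At 3 or more UMIs, 65 of the 102 cells held both genes, 33 held Nrg1 without Mmp13, 3 held Mmp13 without Nrg1 and 1 reached 3 only in the sum. Levels are given as CPM, the UMI count of the summed cells scaled to their total with TMM normalisation, and were 3883 and 3341 for Nrg1 and 8651 and 6013 for Mmp13 in libraries 1 and 2. Of the collagens in the rule, Col3a1 was at 4597 and 3319.6 CPM against 16546 and 17351 CPM in fibroblasts with neither gene, and Col1a1 at 888 and 529 against 4041 and 5521 CPM.

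The threshold fell in a sparse stretch. Only 13 barcodes, 5 and 8, passed every other condition with 1 or 2 UMIs of Nrg1 and Mmp13. The lowest sums inside were 5 and 4 UMIs, and 2 and 5 cells lay between 3 and 5, against medians of 55 and 66. Pdgfra was detected in 3 and 6 of the barcodes just outside, Ereg in 1 and 2, Il11 in 2 and 0, and Lum in 3 and 4. Cells that met the rest of the conditions with no Nrg1 or Mmp13 numbered 58 and 136. They are called the other fibroblasts below and serve as the comparison, with medians of 6891 and 10918.5 UMIs. Nrg1 and Mmp13 were not confined to fibroblasts, since 174 and 384 barcodes gated as leukocytes held at least 3 Nrg1 UMIs and 24 and 37 held at least 3 of Mmp13.

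Other genes used as markers of these cells differed in how far they separated them. These markers were chosen with earlier results of the same data known, so their p-values describe the difference and add no independent support. Ereg, which encodes epiregulin, a ligand of the EGF receptor, stood at 3866 and 1979 CPM in these cells and 23.6 and 45.9 CPM in the other fibroblasts, a log2 difference of 6.54 ± 0.90 (SE; edgeR adjusted p = 0.00467). Il11, a cytokine of the interleukin 6 family, stood at 2947 and 604 CPM against 3.63 and 13.2 CPM, a log2 difference of 6.92 ± 0.79 (edgeR adjusted p = 0.00134). For both genes each library's value was above both values of the other fibroblasts, which restates the difference and adds no support. Pdgfra did not pass the test, with 946 and 628 CPM against 670.1 and 929.6 CPM and a log2 difference of 0.01 ± 0.36 (edgeR adjusted p = 0.997).

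By cell, Ereg was detected in 82.8% of the cells of library 1 (exact 95% interval 64.2 to 94.2) and 83.6% of library 2 (73.05 to 91.2), and in 10.3% and 4.41% of the other fibroblasts. The leukocyte shares were 1.05% and 1.69%. Il11 was detected in 51.7% (32.5 to 70.6) and 57.5% (45.4 to 69.03), against 3.45% and 7.35% of the other fibroblasts and 0.577% and 0.532% of leukocytes. Pdgfra was detected in 82.8% and 73.97% of the cells, 72.4% and 66.2% of the other fibroblasts and 0.204% and 0.871% of leukocytes. After each cell was thinned to 2000 UMIs, which left out 2 and 5 of the cells and 13 and 19 of the other fibroblasts, the shares were 77.8% and 75% for Ereg, 48.1% and 32.4% for Il11, and 66.7% and 50% for Pdgfra. In the thinned other fibroblasts Ereg was at 2.22% and 4.27%, Il11 at 0% and 2.56%, and Pdgfra at 64.4% and 56.4%. Intervals cover counting error only.

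**Figure D1:**
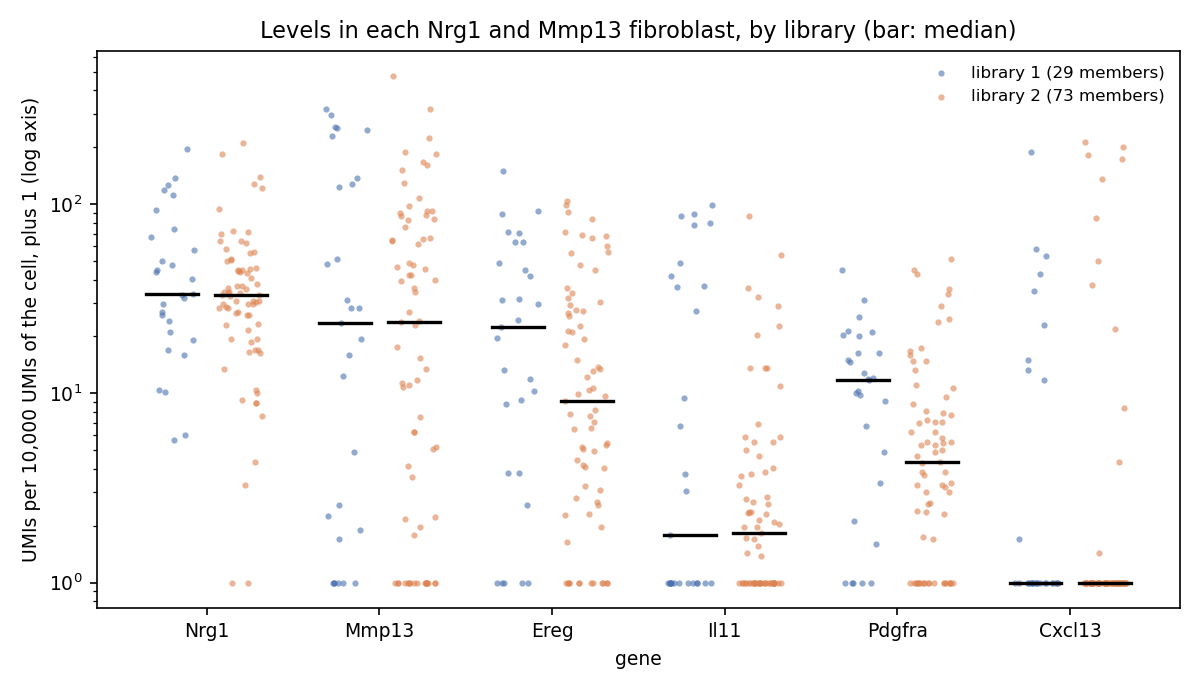
Each point is 1 of the 102 cells, placed by its UMIs of a gene, scaled to the total of that cell, plus 1 on a log axis, in blue for library 1 and orange for library 2, with a bar at the median. Nrg1 was spread over all but 2 cells, whereas Mmp13, Il11 and Cxcl13 were at 0 in many cells and high in others.

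Levels of Il11 rested on few cells. The cell with most Il11 UMIs held 25.3% of them in library 1 and 31.9% in library 2, and the median cell held 1 UMI in each. The sums differed between libraries (863 and 504 UMIs from 29 and 73 cells) more than the shares of cells did. For Ereg the top cell held 22.1% and 7.21% of the UMIs.

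Whether the cells carried subepithelial genes was checked against marker lists. Of 18 subepithelial genes, 15 were tested, 10 were higher than in the other fibroblasts and 1 was lower, with a median log2 difference of 2.86 (3.08 with genes at 0 set to their bound and genes at 1 to 3 counts to their ratio). Of 16 adventitial genes, all tested, 0 were higher and 12 lower, with a median of -4.57 (-4.37). At an unadjusted p under 0.05 edgeR placed 1 adventitial gene higher, and DESeq2 called 0. Over all 11717 genes tested, 7.62% were called higher and 9.27% lower, and the median was -0.08. F3, tissue factor, stood at 704 and 655 CPM against 56.3 and 52.8 CPM, and the morphogen gene Bmp5 at 584 and 301 CPM against 14.5 and 5.03 CPM. The forkhead factor Foxl1, a marker of the fibroblasts that wrap the crypt, was at 44.4 and 13.2 CPM and at 0 in the other fibroblasts of both libraries, at least 15.2-fold higher against a floor of 3 counts over the group. It was detected in 8 and 10 cells, and after thinning in 11.1% and 1.47%, a level near that of 1 UMI. Wnt4, from the same list, was lower (51.2 and 27.6 against 59.9 and 89.9 CPM, edgeR adjusted p = 0.0325), a call lost with DESeq2 and in 5 other settings.

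Adventitial and general fibroblast genes showed the reverse. Pi16, a peptidase inhibitor, was at 0 in both libraries against 234 and 141 CPM, at least 62.1-fold lower. Cd34 was at 3.42 and 3.60 against 296 and 237 CPM and Lum, which encodes the collagen-binding proteoglycan lumican, at 10.2 and 4.80 against 1039 and 1404 CPM. Of 14 general fibroblast genes 2 were higher and 9 lower. Dcn, another collagen-binding proteoglycan, was high in both populations (9719 and 11845 against 7916 and 7497 CPM, edgeR adjusted p = 0.717). The receptor gene Pdgfrb was higher, at 376 and 385 against 123 and 111 CPM. Exceptions on the adventitial list included Grem1, a BMP antagonist, Dpt and Ackr4, none of which passed the test. Grem1 was at 789 and 1039.8 against 748 and 398 CPM and Dpt at 758 and 1241 against 1664 and 1463 CPM. Ackr4 was at 27.3 and 4.80 against 61.7 and 17.6 CPM.

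Markers of other cell types were compared in the same way. Of 8 endothelial and 10 leukocyte genes tested, edgeR called 0 in either direction, as did DESeq2, and at an unadjusted p under 0.05 it placed 1 endothelial gene higher and 0 leukocyte genes in either direction. Summed levels were 3.42 and 31.2 CPM for the endothelial list and 543 and 805 CPM for the leukocyte list, against 19.98 and 27.03 CPM and 510.3 and 841 CPM in the other fibroblasts. The endothelial genes Pecam1, Kdr, Plvap and Cldn5 were at 0. Glial genes summed to 0 and 3.60 CPM. The epithelial list summed to 499 and 494 against 692 and 649.9 CPM, with 2 of 9 lower, and the smooth muscle list without Myh11 to 195 and 218 against 265 and 507 CPM, with 1 of 8 higher and 2 lower. The pericyte list gave 430.3 and 753 against 1191 and 989 CPM, with 1 of 6 higher and 1 lower. The higher gene was Kcnj8, a potassium channel gene, at 280.0 and 283 against 79.9 and 124 CPM (edgeR adjusted p = 8.55e-04), and smooth muscle held 121 and 177 CPM. On the smooth muscle list the higher gene was Synpo2, at 106 and 71.96 against 18.2 and 23.9 CPM.

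Genes of 2 further cell types were compared. All 5 mesothelial genes were lower in the Nrg1 and Mmp13 fibroblasts, at a summed 58.1 and 74.4 against 469 and 359 CPM, with Msln, Lrrn4 and Wt1 at 0. In libraries 1 and 2, 4 and 3 of the 5 genes were at 0. The list includes Krt19, which is also on the epithelial list, and epithelium summed to 3029 and 3362 CPM. Krt19 was left out of the mesothelial UMIs counted per barcode below. Genes of interstitial cells of Cajal, the pacemaker cells of gut muscle, summed to 71.7 and 35.98 against 305 and 202 CPM, with Ano1 lower, while Kit (edgeR adjusted p = 0.15) and Etv1 (edgeR adjusted p = 0.649) did not pass. At least 2 mesothelial UMIs were found in 7 of 58 and 22 of 136 of the other fibroblasts and in 0 of the Nrg1 and Mmp13 fibroblasts. At least 2 Cajal UMIs were found in 8 of 58 and 25 of 136 of the other fibroblasts and in 6 of 29 and 5 of 73 of the Nrg1 and Mmp13 fibroblasts, so the share was lower in the latter in library 2 only. Barcodes with at least 2 UMIs of these markers were left out of the other fibroblasts alone, a setting chosen after seeing the data that kept all 102 cells, and 855 genes were then higher and 926 lower. The part of these barcodes in the result was not tested further.

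Comparing the Nrg1 and Mmp13 fibroblasts with the other fibroblasts asks what else sets them apart within the same tissue. In an edgeR quasi-likelihood fit across the summed cells of 6 gated populations, 893 of 11717 genes were higher and 1086 lower at an adjusted p under 0.05 with the same direction in both libraries. In bulk sums of this kind, more cells with a transcript and more RNA per cell cannot be told apart. The largest rises among genes at 50 CPM or more in the higher population included secreted signals, enzymes of the matrix and receptors for irritants and neuropeptides. At 0 in the other fibroblasts were Trpa1, an ion channel opened by chemical irritants (205 and 56.4 CPM, at least 67.8-fold higher), Ces1g, a carboxylesterase (30.7 and 109 CPM, at least 63.4-fold), and Tacr1, the receptor of the neuropeptide substance P (61.5 and 49.2 CPM, at least 37.4-fold).

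Other leading rises covered matrix and signalling. Cemip, which takes part in hyaluronan breakdown, stood at 1885 and 1770.1 CPM against 5.45 and 10.1 CPM. Smoc1, a secreted matrix protein that binds BMPs, held 262 times (counting interval 71.9 to 2177) the level of the other fibroblasts, and Papln, a matrix glycoprotein, 171 times (counting interval 29.9 to 6831). Inhba, which encodes the subunit of activin A, stood at 1656 and 992 against 18.2 and 5.66 CPM. The metallothionein Mt3 was at 188 and 1006 against 0 and 6.29 CPM, a call lost without the mesothelial and Cajal barcodes and without the filter on low counts. The carboxypeptidase gene Cpm was at 1249.9 and 902 against 14.5 and 10.7 CPM. In all of these the libraries of the 2 populations did not overlap. Picking the largest called rises nearly ensures this, so it adds no support, and the share of all genes tested without overlap was not counted. Mmp10, Il1rl1, Bmp2 and Ptgs2 complete this group with Ereg and Il11 and are taken up with their families.

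**Figure D2:**
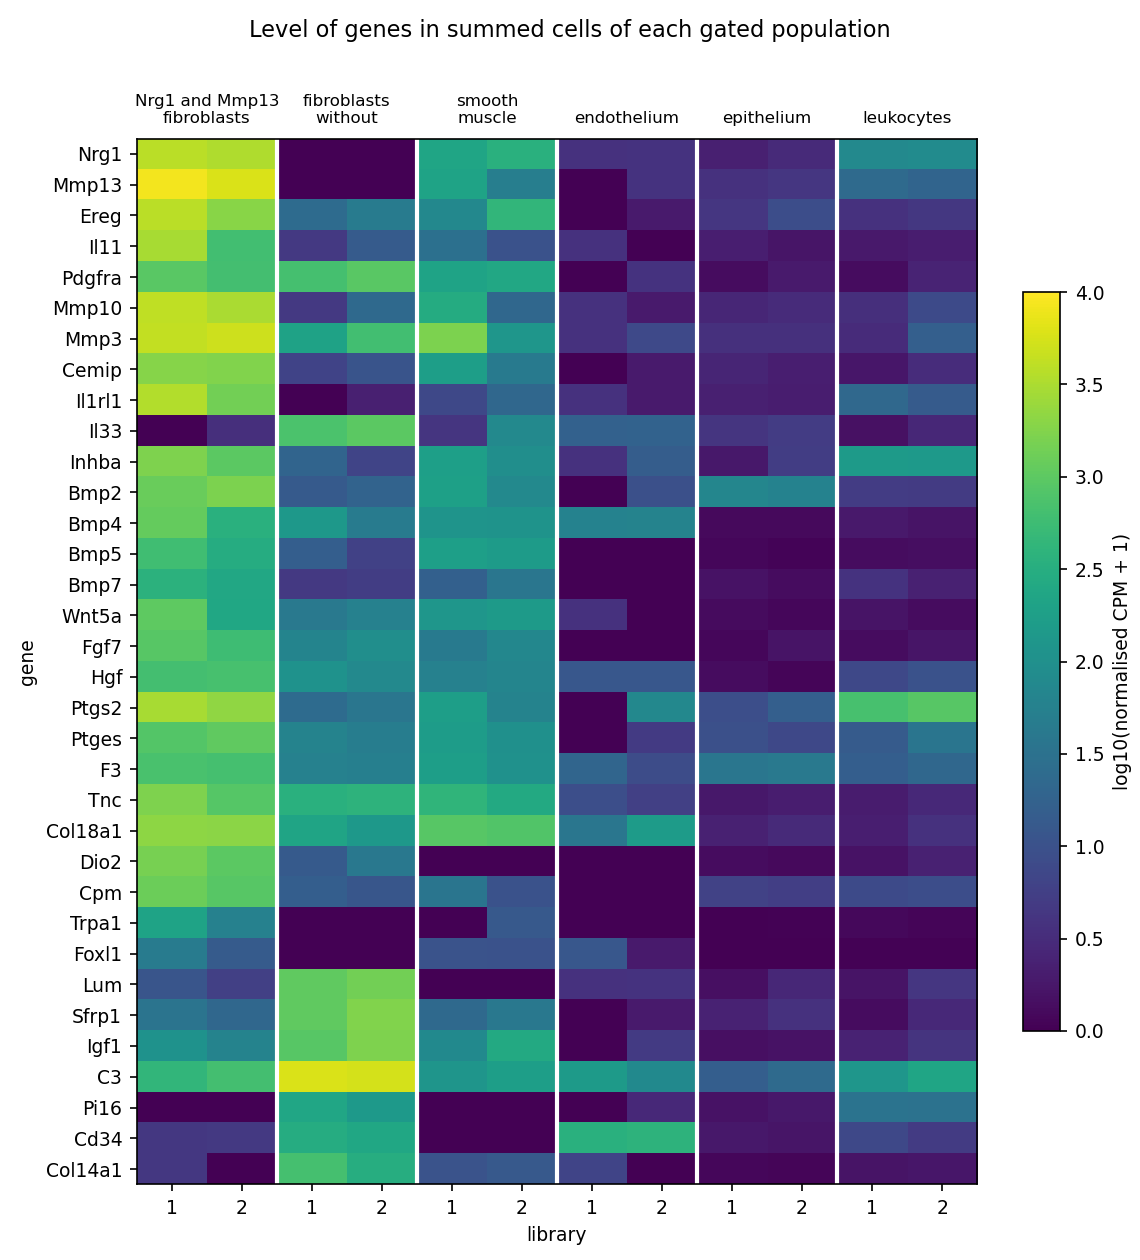
Rows are genes and columns the summed cells of 6 gated populations, 1 column per library, coloured by log10 of normalised CPM plus 1. The first pair of columns, the 102 cells, is bright from Nrg1 to Trpa1 and dark at Il33, Lum, Pi16, Cd34 and Col14a1, where the second pair is bright, while Pdgfra is bright in both.

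Falls were ranked by the fitted log2 difference, which runs to extreme values at a count of 0, so genes at 0 come first. Lum, with 3 and 4 counts, was 242-fold lower by that fit, above any bound given in this paragraph, yet is not among the 15. The 15 largest fitted falls were all genes at 0 in the Nrg1 and Mmp13 fibroblasts. They were Stmn2, a microtubule regulator (at least 191-fold lower, 178 and 624 CPM in the other fibroblasts), the growth factor gene Ptn (at least 86.1-fold), Col8a1 (76.98), the proteoglycan Aspn (69.97), the TGF-beta family gene Gdf10 (65.4), Pi16, Ptgis, Hand2os1, Ildr2, Olfr1033, A2m, Pcolce2, C1qtnf7, Spock2 and Abca8a. Bounds for the genes after Gdf10 lay between 26.7-fold and 62.1-fold. A2m and Abca8a lost the call with DESeq2. Without the mesothelial and Cajal barcodes of the other fibroblasts 14 of these calls held, and A2m had no value under that setting. Hand2os1 overlaps Hand2 on the opposite strand, and the sources used here do not say whether counting used the strand.

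Among EGF family ligands and receptors, Ereg was the only one of 8 genes tested beyond Nrg1 that rose, and 0 fell (median 0.00, 0.12 bounded). DESeq2 called 2 higher and 0 lower, and at an unadjusted p under 0.05 edgeR placed 2 lower. Areg, which encodes amphiregulin, was at 171 and 7.20 CPM against 5.45 and 4.40 CPM and did not pass (edgeR adjusted p = 0.236), and its libraries differed widely. Hbegf was at 6.83 and 8.39 against 12.7 and 3.14 CPM. The receptor Egfr was present in both populations (123 and 83.9 against 205 and 152 CPM), while Erbb3, a receptor of neuregulin 1, was at 6.83 and 2.40 CPM here and had a mean of 182 CPM in epithelium. Erbb4 had 0 counts in every gated population.

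Several BMP ligands, which restrain crypt stem cells and are held back by secreted antagonists, were higher. Of 28 BMP and TGF-beta genes tested 11 were higher and 5 lower, with a median of 0.79 (0.68 bounded). Bmp2 stood at 1239.7 and 1653 CPM against 12.7 and 17.6 CPM, a log2 difference of 6.49 ± 0.44 (edgeR adjusted p = 5.30e-07). Bmp7 was at 376 and 246 against 3.63 and 4.40 CPM (6.06 ± 0.40 on the log2 scale, edgeR adjusted p = 8.59e-09), Bmp5 differed by 5.66 ± 0.33 (edgeR adjusted p = 1.35e-09), and Bmp4 was at 1144 and 350.2 against 134 and 45.9 CPM. Among targets of BMP and TGF-beta signals, the inhibitory Smads were higher, Smad6 by 2.17 and Smad7 by 1.97 on the log2 scale, while Id1 (0.16), Id2 (0.06) and Id3 (0.12) did not pass the test. The antagonist Chrdl1 was at 0 (at least 4.21-fold lower, a call lost without the mesothelial and Cajal barcodes), and Tgfb3 fell by 2.68 on the log2 scale, a call lost under the same setting and when cells were thinned to 2000 UMIs.

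Of 11 Wnt pathway genes tested 1 was higher and 7 were lower (median -3.88, -2.62 bounded). Wnt5a, a non-canonical ligand, was higher at 1031 and 239 CPM against 39.95 and 55.9 CPM, a call lost when the fibroblast populations were fitted alone. The R-spondins, which amplify Wnt signals, were low. Rspo1 was at 10.2 and 1.20 against 58.1 and 52.2 CPM, and the other fibroblasts held 33.9 times (counting interval 9.20 to 283) the Rspo3 level. Of the secreted inhibitors, Sfrp1 was lower at 34.2 and 20.4 against 1046 and 1742 CPM, and Sfrp2 and Sfrp4 were lower at 0 (Sfrp4 was not called by DESeq2). Dkk3 and Frzb, also secreted inhibitors, did not pass, with log2 differences of -0.43 and -0.94.

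Several secreted matrix metalloproteinases were abundant. Beside Mmp13, the stromelysin Mmp10 stood at 4078 and 3064 CPM against 3.63 and 22.00 CPM, a log2 difference of 7.77 ± 1.31 (edgeR adjusted p = 0.0140), and it was detected in 20 of 29 and 55 of 73 cells. Mmp3, the other stromelysin, was at 4293 and 4893 CPM against 202 and 605 CPM, but its difference of 3.56 ± 1.42 did not pass (edgeR adjusted p = 0.181). Mmp14, the membrane protease that activates Mmp13 and gelatinase A, was at 686 and 685 against 269 and 318 CPM, and Mmp19 at 232 and 269.8 against 79.9 and 81.1 CPM. Mmp9 rose by 4.79 on the log2 scale to 30.7 and 122 CPM, and leukocytes held a mean of 228 CPM. Mmp12 held 89.3 times (counting interval 15.3 to 3603) the level of the other fibroblasts. In all, 5 of 13 genes tested were higher and 2, Mmp16 and Mmp23, lower, with a median of 0.90 (1.06 bounded).

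Mmp13, Mmp3 and Mmp10 lie within 230.1 kb of each other on chromosome 9. The 250 bases before each start site are shown because Mmp13 chose the cells and the others lie near it. Only stretches that hold the motif named below were kept, so its presence in those shown follows from the choice. Other Mmp genes, among them Mmp12, are not shown. The Il11 stretch before the 1 of its 2 listed start sites that holds the motif is added for comparison. Sequences are RefSeq's (GRCm38.p6), 5′ to 3′ on the gene's strand. Capitals mark the AP-1 motif TGACTCA or TGAGTCA, which are each other's reverse complement, so both strands were searched.
Mmp13, chr9:7272264-7272513, plus strand: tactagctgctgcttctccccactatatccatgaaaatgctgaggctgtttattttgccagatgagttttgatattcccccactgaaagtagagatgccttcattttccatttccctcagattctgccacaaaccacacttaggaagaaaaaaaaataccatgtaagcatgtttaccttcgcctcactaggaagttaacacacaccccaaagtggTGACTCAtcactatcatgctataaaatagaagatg
Mmp3, chr9:7445572-7445821, plus strand: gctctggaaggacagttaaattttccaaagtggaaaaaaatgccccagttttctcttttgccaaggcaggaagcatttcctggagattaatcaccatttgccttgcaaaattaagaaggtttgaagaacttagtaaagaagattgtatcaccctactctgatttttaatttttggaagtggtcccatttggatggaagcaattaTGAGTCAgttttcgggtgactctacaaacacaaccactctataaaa
Mmp10, chr9:7502092-7502341, plus strand: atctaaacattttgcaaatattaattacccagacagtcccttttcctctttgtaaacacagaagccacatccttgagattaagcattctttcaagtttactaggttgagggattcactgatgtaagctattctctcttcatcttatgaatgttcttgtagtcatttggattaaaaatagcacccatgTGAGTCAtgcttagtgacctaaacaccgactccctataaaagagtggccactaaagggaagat
Il11, chr7:4778142-4778391, minus strand: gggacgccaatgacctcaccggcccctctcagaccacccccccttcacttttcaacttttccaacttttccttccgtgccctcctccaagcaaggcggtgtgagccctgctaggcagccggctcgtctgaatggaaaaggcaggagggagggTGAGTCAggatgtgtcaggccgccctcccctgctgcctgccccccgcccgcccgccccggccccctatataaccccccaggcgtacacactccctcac
The motif began 35, 46, 63 and 98 bases before the start site of Mmp13, Mmp3, Mmp10 and Il11. Over 300 bases, from 250 before to 50 after the start, it was found in 5.20% of 32851 listed promoters and for 7 of 18 genes named Mmp. Of the 15 genes with the largest fitted rises 11 had a promoter in the table and 2 of them held it. Of the 15 with the largest fitted falls, all at 0 counts in these cells, 11 had one and 0 held it. A match is a description of letters and does not show a bound site.

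Other proteases and inhibitors split evenly, 5 of 17 higher and 5 lower (median -0.24, -0.26 bounded). The urokinase gene Plau was at 819.6 and 275 CPM against 18.2 and 14.5 CPM (edgeR adjusted p = 2.01e-06) and its receptor Plaur at 61.5 and 64.8 against 27.2 and 14.5 CPM. Of the tissue inhibitors of metalloproteinases, Timp3 was higher (2626 and 599.6 against 174 and 96.2 CPM) and Timp1 lower (99.04 and 77.95 against 521 and 1537 CPM), and Timp2 was at 386 and 473 against 583 and 460.1 CPM. The Timp3 call was lost without the mesothelial and Cajal barcodes and without the filter on low counts. Adamts15 and Adamts5 fell by 4.97 and 4.80 on the log2 scale.

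Il11 was the only higher gene among 9 of the IL-6 family tested, and 2 receptors were lower (median 0.13). The IL-11 receptor chain Il11ra1 was at 23.9 and 27.6 CPM against 182 and 257 CPM in the other fibroblasts, and the shared signalling chain Il6st at 119.5 and 156 against 650.2 and 638 CPM (edgeR adjusted p = 5.30e-07 and 1.58e-06). Il6 stood at 6.83 and 155 against 88.99 and 99.9 CPM and did not pass the test. Osmr, the oncostatin M receptor, was at 161 and 194 against 198 and 145 CPM. Ligand and receptor of IL-11 thus lay on opposite sides of the comparison.

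The same held for the IL-33 pair. Il1rl1 (ENSMUSG00000026069, chromosome 1, 40429570 to 40465415), which encodes the IL-33 receptor ST2, stood at 3415 and 1426 CPM in the Nrg1 and Mmp13 fibroblasts and 0 and 1.26 CPM in the other fibroblasts, 2081 times (counting interval 575 to 17190.4) as high (edgeR adjusted p = 7.44e-10). Il33, the alarmin it binds, stood at 0 and 2.40 CPM against 723 and 987 CPM, and the other fibroblasts held 518 times (counting interval 143 to 4279.6) the level. Il1rl1 was detected in 19 of 29 and 29 of 73 cells, and in 5.13% and 3.73% of leukocytes, where the mean level was 17.4 CPM. The top cell held 38.6% and 16.9% of its UMIs. Il33 was detected in 0 of 29 cells, which allows a share of up to 10.3% of cells with a UMI and does not limit the share expressing the gene, and in 2 of 73. The counts do not distinguish the membrane and the soluble form of ST2.

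On the list of other cytokines, which counts Il33 again, 4 of 14 genes were higher and 3 lower (median -0.41). Il1a was at 13.7 and 52.8 against 0 and 3.77 CPM, a call lost in thinned cells, Il34, a ligand of the macrophage receptor CSF1R, at 68.3 and 171 against 21.8 and 13.2 CPM, and Tnfsf11, which encodes RANKL, at 30.7 and 31.2 against 3.63 and 2.51 CPM. Among 21 receptor genes tested, Il1rl1 included, 5 were higher and 0 lower (1 at an unadjusted p under 0.05, 0 with DESeq2, median 0.36). Il4ra was at 246 and 138 against 30.9 and 42.1 CPM and Ifngr1 at 263 and 158 against 79.9 and 76.7 CPM. Apart from Il1rl1, the higher receptors Il4ra, Ifngr1, Ifnar1 and Il17rc all lost their calls in thinned cells. Il17rc also lost it without the filter on low counts and with the fibroblast populations fitted alone. Il1r1, the IL-1 receptor, was present in both populations without a call (355 and 233 against 193 and 288 CPM).

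Of 19 chemokine genes tested 7 were higher and 3 lower, with a median of 1.15 (1.25 bounded). Cxcl1, Cxcl2 and Cxcl5 attract neutrophils. Cxcl2 stood at 3425 and 3810.1 CPM against 138 and 93.02 CPM, Cxcl1 at 1308 and 1716 against 319.6 and 226 CPM and Cxcl5 at 1239.7 and 1339.6 against 232 and 373 CPM, with log2 differences of 4.99 ± 0.57, 2.49 ± 0.37 and 2.07 ± 0.46. A single cell held 54.04% of the Cxcl2 UMIs of library 1 and 37.5% of those of library 2. Leukocytes held a mean of 5107 CPM of Cxcl2 and 2.34 CPM of Cxcl5. The calls of Cxcl5 and Cxcl3 were lost without barcodes marked as doublets and when both populations were kept to barcodes with Pdgfra. Cxcl10, which attracts T cells, was higher (577 and 529 against 34.5 and 52.8 CPM, a call lost when cells were thinned to 2000 UMIs), and Cxcl9, at 1239.7 and 965 against 9.08 and 60.97 CPM, did not pass (edgeR adjusted p = 0.111). Lower were Cxcl12, the ligand of CXCR4 (75.1 and 86.3 against 915 and 1439 CPM), Ccl11, which attracts eosinophils (0 and 11.99 against 852 and 689 CPM), and Ccl19, at 0.

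Several genes of prostaglandin E2 synthesis were higher. Of 15 prostaglandin genes tested 7 were higher and 2 lower, with a median of 1.09. Pla2g4a, which releases arachidonic acid, was at 287 and 265 against 50.9 and 30.2 CPM. Ptgs2, the inducible cyclooxygenase, was at 3016 and 2168 against 23.6 and 35.8 CPM and Ptges, the PGE2 synthase, at 840.1 and 1047 against 59.9 and 47.8 CPM (log2 differences 6.45 ± 1.04 and 4.18 ± 0.48, edgeR adjusted p = 0.0107 and 3.68e-04). Both libraries lay above both values of the other fibroblasts for each of these genes, which were named because they were called, so this adds no support. The other PGE2 synthases, Ptges2 (log2 difference 0.58) and Ptges3 (-0.09), did not pass the test. Ptgis, the prostacyclin synthase, was at 0 against 138 and 165 CPM, at least 59.3-fold lower. The PGE2 receptor Ptger2 held 27.2 times (counting interval 8.72 to 137) the level of the other fibroblasts, and Ptger3 was at 0 (at least 13.9-fold lower).

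Acute-phase and complement genes were mixed, with 2 of 15 higher and 4 lower (median -0.04). Saa3, a serum amyloid A gene, stood at 13507 and 44664 CPM against 1529 and 5299 CPM and rose by 3.09 ± 0.52 on the log2 scale. In both populations library 2 was above library 1. Complement C3 was at 427 and 639 against 5908 and 5428 CPM. Interferon-stimulated genes gave 8 of 20 higher and 0 lower (median 1.43; 0 lower also at an unadjusted p and with DESeq2), with the GTPases Gbp4 at 208 and 91.1 against 10.9 and 29.5 CPM and Irgm1 at 225 and 149 against 21.8 and 50.3 CPM. Genes of NF-kappaB and its feedback gave 10 of 19 higher and 1 lower (median 1.03). The inhibitor Nfkbia was at 792 and 971 against 312 and 275 CPM, and Tnfaip6, a hyaluronan-binding protein, was the lower one at 10.2 and 3.60 against 131 and 77.9 CPM. Saa3, Ces1g, Gbp4, Irgm1, the pair Cxcl1 and Cxcl2 and the pair Mmp3 and Mmp10 have close paralogs, and the sources used here do not say how reads shared between copies were counted.

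Of 28 structural matrix genes 12 were lower and 5 higher, with a median of -0.81 (-0.31 bounded). Col14a1, a collagen on fibril surfaces, was at 3.42 and 0 CPM against 654 and 305 CPM, and Sparc at 1745 and 1841 against 4366 and 6552 CPM, a call lost without TMM and without the library block. Among the 5 higher genes, Col18a1, a basement membrane collagen, was at 2128 and 2026 against 212 and 134 CPM, Lama5, a laminin chain, at 236 and 248 against 5.45 and 5.66 CPM, and Col12a1 at 1421 and 526 against 43.6 and 54.7 CPM. Col7a1, the anchoring fibril collagen, was 81.7 times (counting interval 13.9 to 3303) as high, and Tnc, tenascin C, was at 1656 and 868 against 351 and 384 CPM. The rule's own fibrillar collagens were lower and its Col6a1 (1335 and 951 against 672 and 615 CPM) and Col6a2 (994 and 883 against 403 and 429.9 CPM) higher, and these were not tested.

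Growth factors for epithelium and vessels divided by gene. Of 18 tested 3 were higher and 5 lower (median -0.11). Fgf7, keratinocyte growth factor, was at 905 and 566 against 61.7 and 93.02 CPM, Hgf, the ligand of MET, at 642 and 691 against 109 and 74.2 CPM, and Angpt1, a ligand of the vessel receptor TIE2, at 225 and 195 against 3.63 and 11.3 CPM. Igf1 was lower at 109 and 59.96 against 921 and 1691 CPM and Gas6, a ligand of the TAM receptors, at 34.2 and 14.4 against 665 and 1071 CPM. Adhesion and guidance genes gave 6 of 19 higher and 1 lower (median 0.39), with the collagen receptor subunit Itga1 at 1042 and 1355 against 227 and 182 CPM, a call lost in thinned cells, and the fibronectin receptor subunit Itga5 at 396 and 678 against 104 and 118 CPM.

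Among the function lists, hypoxia and glycolysis genes had the highest share called higher, 13 of 20, with 0 lower (also at an unadjusted p and with DESeq2, median 0.96). Over all genes tested, 7.62% were called higher and 9.27% lower, the shares to set beside every list count here and above. The glucose transporter Slc2a1 was at 147 and 158 against 1.82 and 18.2 CPM, the lactate transporter Slc16a3 at 75.1 and 39.6 against 3.63 and 10.1 CPM and the vasodilator peptide gene Adm at 423 and 203 against 63.6 and 30.8 CPM, though Adm lost its call when both populations were kept to barcodes with Pdgfra. Transcription factors of fibroblasts gave 12 of 22 higher and 3 lower (median 1.04). Foxf1 and Foxf2, which act in gut mesenchyme, rose by 2.36 and 3.25 on the log2 scale, Twist2 by 2.91 and the AP-1 subunit Fosl1 by 4.29. Fosl1 is counted again on the immediate-early list. Prrx1 was at 0 (at least 22.97-fold lower) and the other fibroblasts held 191 times (counting interval 34.2 to 7584) the Osr1 level. Immediate-early genes, which tissue digestion can induce, gave 3 of 24 higher and 3 lower (median -0.30), and cell cycle genes 2 of 18 higher, the arrest gene Cdkn1a at 140.0 and 303 against 16.3 and 40.9 CPM and Ccnd1, whose call was lost in thinned cells and with at least 6 UMIs of Nrg1 and Mmp13, and 0 lower (2 at an unadjusted p under 0.05, 0 with DESeq2, median -0.45, -0.32 bounded).

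**Figure D3:**
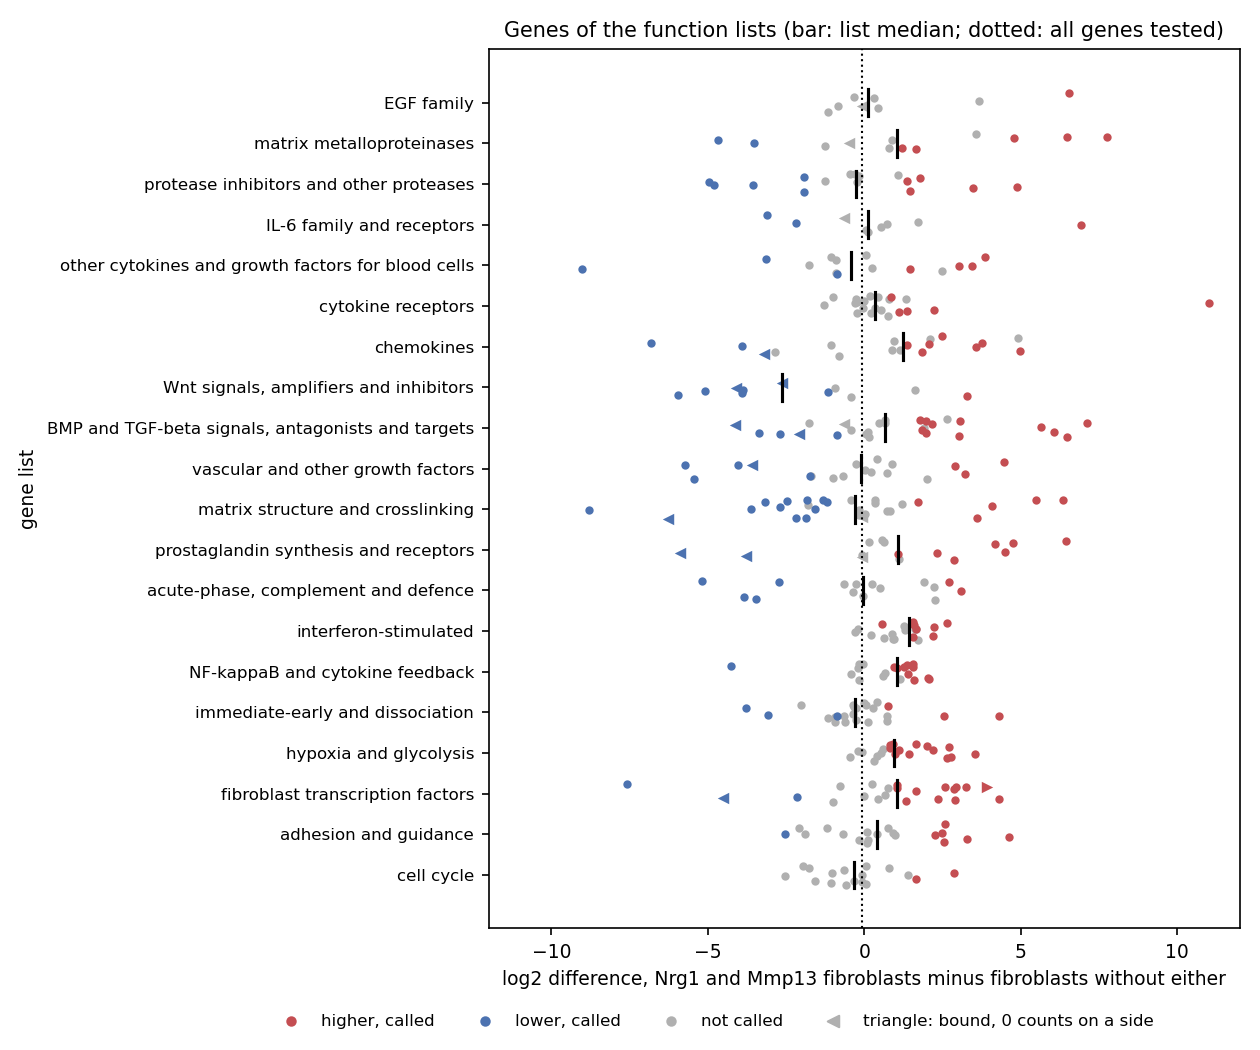
Each point is 1 gene of a function list, placed by its log2 difference between the 102 cells and the other fibroblasts, in red or blue where called and grey where not. Triangles are bounds for genes at 0 counts on a side, bars are list medians with these bounds, and the dotted line is the median of all genes tested, -0.08. Hypoxia, interferon and NF-kappaB genes lie mostly to the right, and Wnt genes mostly to the left.

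Set against all 6 gated populations, 69 genes (0.589% of those tested) were highest in the Nrg1 and Mmp13 fibroblasts, with an adjusted p under 0.05 for the weakest of the 5 contrasts. The 10 with the largest leads at 50 CPM or more were Il1rl1 (lead 7.06 on the log2 scale over leukocytes), Il11 (6.38 over smooth muscle), Cpm (5.62 over smooth muscle), Dio2, which activates thyroid hormone (1496 and 981 CPM, lead 5.40 over the other fibroblasts), Stra6, a receptor for retinol uptake (23.9 and 116 CPM), Trpa1, Cemip (4.12), Bmp7 (3.53), Bmp2 (3.48) and Ces1g. Smooth muscle was second for Trpa1, Cemip, Bmp7, Bmp2 and Ces1g, and endothelium for Stra6. Listed genes among the 69 also included F3, Bmp4, Bmp5, Tnc, Mmp14, Mmp19, Plau, Hgf, Fgf7, Ptges, Pla2g4a, Twist2 and Runx1. Mmp10 and Ereg were not among them, with edgeR adjusted p = 0.648 and 0.319 against the second population, smooth muscle. That gate did not limit Nrg1 or Mmp13, and 5 of its 26 and 7 of its 32 barcodes held at least 3 UMIs of the pair.

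The cells differed among themselves along Mmp13. The planned test of cells with Nrg1 alone against cells with Mmp13 alone could not be run, since the latter were 1 and 2. The cells were therefore split into 68 with 3 or more Mmp13 UMIs (18 and 50) and 34 with fewer (11 and 23), a split chosen after seeing the data and given without a test. Median depth was 8428 and 12814.5 UMIs with Mmp13 and 7991 and 7423 without, in libraries 1 and 2. Of 3934 genes at 50 CPM or more on either side, 42 were at least 4-fold higher with Mmp13 in both libraries and 53 at least 4-fold lower, on a scale of CPM plus 5 without TMM.

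Cells with Mmp13 held more Il11, Il1rl1, Inhba and Mmp10. Il11 stood at 4579 and 752 CPM in libraries 1 and 2, against 22.7 and 53.2 CPM in cells with fewer Mmp13 UMIs, and it was detected in 49 of 68 and 8 of 34 cells. Il1rl1 was at 5233 and 1795 against 182 and 47.3 CPM, Inhba at 2558 and 1226 against 45.5 and 118 CPM and Mmp10 at 6238 and 3770.1 against 239 and 437 CPM. Detection of Il1rl1 differed little in library 1, with 13 of 18 against 6 of 11 cells, and more in library 2, with 28 of 50 against 1 of 23. Serpine2, Cxcl2, Dio2, Gfra2, Mmp12, Glipr1 and Igsf9b complete the 10 genes with the largest smaller-of-2-libraries difference. Mmp3 was at 6679 and 6039 against 11.4 and 627 CPM and Grem1 at 1228 and 1267 against 0 and 195 CPM, detected in 36 of 68 and 2 of 34 cells. The top cell held 47.2% of the Grem1 UMIs of library 1 and 11.4% of those of library 2.

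Cells with little Mmp13 carried another set. Cxcl13, the chemokine that attracts B cells, stood at 3150.0 and 5593 CPM against 42.5 and 1.52 CPM with Mmp13, and was detected in 20 of 34 and 2 of 68 cells. Adamdec1, a secreted metalloprotease, was at 2706 and 2229 against 69.1 and 39.5 CPM and the chemokine Ccl8 at 329.8 and 337 against 5.32 and 1.52 CPM. Efemp1, Chl1, Ogn, Spon2, Igsf10, Col4a5 and Ces1d complete the 10. Col1a1, a gene of the rule, was at 2229 and 1466 against 340.3 and 293 CPM and Pdgfra at 1785 and 1017 against 638 and 535 CPM, though Pdgfra was detected in 25 of 34 and 53 of 68 cells.

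Nrg1 was at 4196 and 3541 CPM with Mmp13 and 3957 and 2696 CPM without. Cells with little Mmp13 could enter only with Nrg1, so its presence there, and in part its level, was set by the choice. Bmp7 was at 399 and 252 against 398 and 231 CPM. Ereg was at 5249 and 2076 against 1649 and 1679 CPM, in 62 of 68 and 23 of 34 cells. Across the 102 cells, as UMIs per cell total, the Spearman rho with Mmp13 was 0.705 for Mmp10, 0.550 for Il11 and -0.543 for Cxcl13. Within libraries 1 and 2 the rho with Mmp13 was 0.772 and 0.651 for Mmp10, 0.670 and 0.443 for Il11, and -0.744 and -0.444 for Cxcl13. Mmp13 also chose the cells, which share 2 libraries and differ in depth, so these are descriptions.

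**Figure D4:**
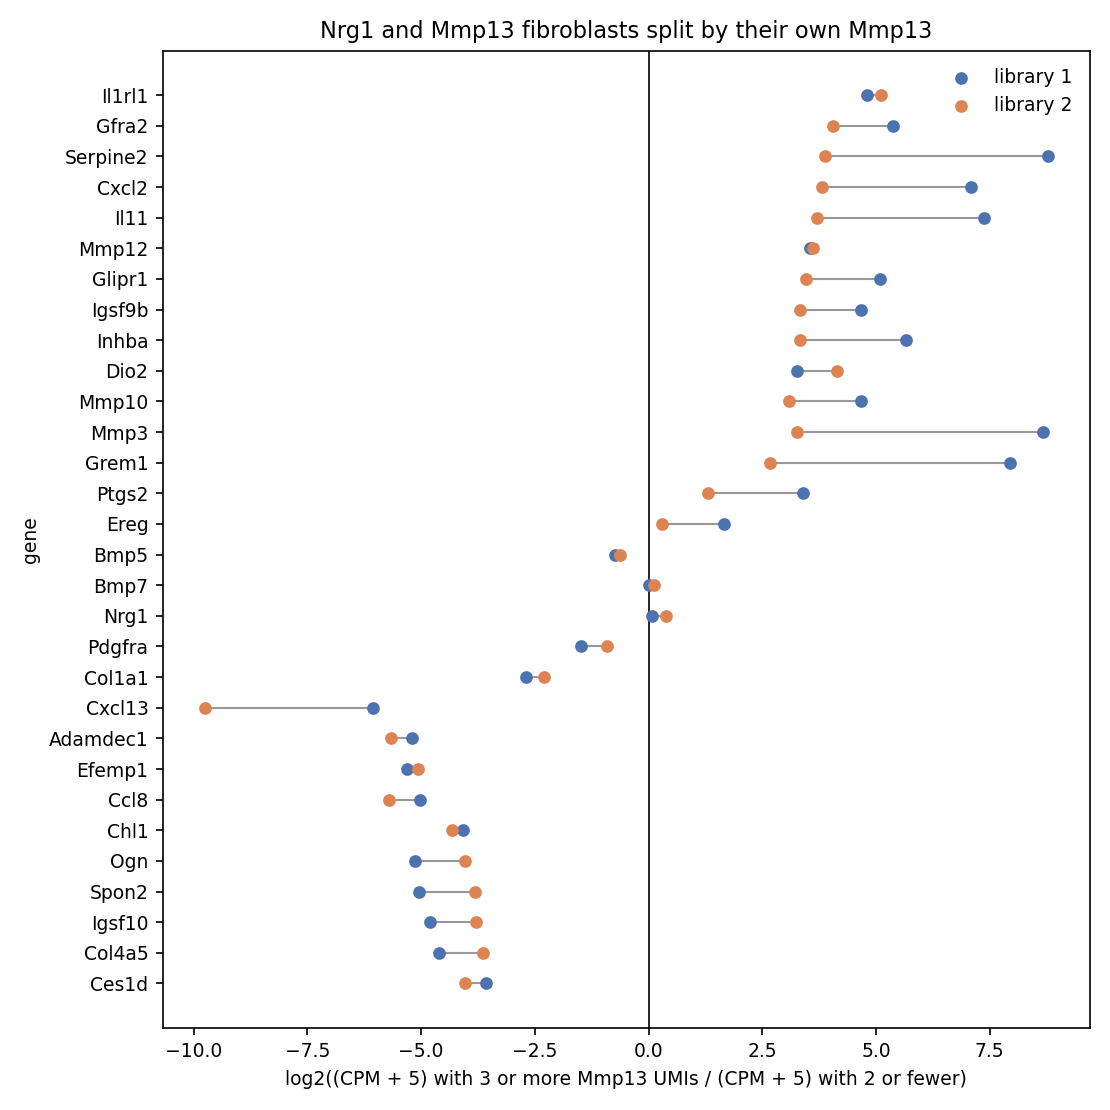
Each row is a gene and each point 1 library, placed by the log2 ratio of its level (CPM plus 5) in cells with 3 or more Mmp13 UMIs to that in cells with 2 or fewer. Genes from Grem1 up lie right of 0 and those from Cxcl13 down lie left of it in both libraries, while Nrg1 and Bmp7 lie near 0.

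The libraries differed for some of the genes above. Values in library 1 were above those in library 2 for Il11 (2947 and 604 CPM), Timp3 (2626 and 599.6 CPM), Wnt5a (1031 and 239 CPM), Bmp4 (1144 and 350.2 CPM) and Plau (819.6 and 275 CPM). They were below for Saa3 (13507 and 44664 CPM) and Mt3 (188 and 1006 CPM). With 1 group and 1 library per repeat these differences carry no test.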

How the data were processed

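Single cells of 2 libraries were measured with droplet-based 3′ sequencing. The labels' protocols name a V3 kit for capture and v2 reagents for the libraries, which conflict. The deposited files hold whole-number UMI counts per gene and barcode (55357 genes), which the authors made with Cell Ranger, version 7.0.0 per the file headers and 8.0.0 per the submitters' processing notes, on mm10. The sources used here do not name the annotation. The cells were gated by the stated UMI limits. Smooth muscle needed at least 3 Myh11 UMIs and endothelium at least 2 of Cdh5. Epithelium needed at least 4 Epcam UMIs and leukocytes at least 2 of Ptprc, each with at most 2 collagen UMIs. Doublets were scored with Scrublet in scanpy 1.11.5 at 0.8% per 1000 barcodes and removed only as an alternative.

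Counts were summed per library and population into 12 sums and fitted in edgeR 4.0.16 (R 4.3.3) with TMM, filterByExpr, the library as a block and 5 residual degrees of freedom. Calls needed a Benjamini-Hochberg adjusted p under 0.05 and the same direction in both libraries, and the rule's 11 genes were left out of them. SEs are the absolute log2 difference divided by the square root of its quasi-likelihood F statistic. Genes at 0 on one side are given as bounds from a floor of 3 counts over the group, and those at 1 to 3 counts as ratios with exact 95% intervals. The pipeline was tested on simulated counts. Alternatives were DESeq2 1.42.0, no TMM, no filter on low counts, other gates, thinning to 2000 UMIs, the fibroblast populations alone and no library block.

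The cells, the 20 function lists and the marker lists were chosen with earlier results of these data known. Genes are named by rule: those of the gate and label, up to 5 called examples a direction and list, the 15 largest rises and falls, and the 10 highest leads, at 50 CPM or more for the last 3 groups and without predicted, mitochondrial and ribosomal protein genes. Other genes named with values, among them uncalled list genes, were chosen after their values were seen. Gene coordinates are from GENCODE M21 (GRCm38), in which 514 of 518 named and listed IDs were found. Intervals and floors cover counting error only.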

Additional observations from a re-analysis of the deposited data

Results flagged for a closer look

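Outside the filters, 3 barcodes (2 in library 1 and 1 in library 2) at or above 20% mitochondrial UMIs met every other condition of the choice. In all, 876 and 484 barcodes of libraries 1 and 2 were at or above that limit. The 3 barcodes entered no comparison and were not analysed further.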

How the results depend on the processing

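Across 13 alternatives, 107 of 149 named genes kept their direction and their side of the threshold in every alternative that tested them. Thinning every cell to 2000 UMIs, which removes counts, left 302 genes higher and 372 lower, and 30.8% of the main calls were called in the same direction. The hypoxia gene Egln3 turned to -0.0262 on the log2 scale. Without the filter on low counts 122 genes were highest in the Nrg1 and Mmp13 fibroblasts instead of 69. In the remaining settings between 796 and 949 genes were higher and between 870 and 1128 lower, with 803 and 1007 without the library block (replicate block). Sums of 1 library share its preparation and sequencing, from which the pairing comes. The settings without mesothelial or Cajal barcodes in the other fibroblasts and with Pdgfra in both populations were chosen after seeing the data. Leaving out a library leaves the other library's own difference, without a test, so counts of calls have no such value, and called genes keep their sign by the call rule. The planned test of Nrg1-only against Mmp13-only cells was not run, because 1 and 2 cells held Mmp13 alone. Depth limits genes near 1 UMI per cell, such as Foxl1.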
